A study of Mus musculus with 6 samples.

Results

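The genes of bone-forming cells were followed in leg muscle of mouse fetuses that lack *SYISL*. They are *Runx2*, *Sp7*, *Alpl*, *Ibsp*, *Bglap*, *Bglap2*, *Spp1*, *Dmp1*, *Mepe* and *Phex*, 10 of the 56262 genes in the count table, chosen by name as markers of osteoblasts and osteocytes and found through their Ensembl identifiers. *SYISL* is a noncoding transcript of the *Synpo2* locus, named for its overlap with an intron of that gene, and the study asked what its loss does to muscle development before birth. RNA-seq of total RNA from leg muscle at embryonic day 18.5 (E18.5) was available for 3 wild type (WT) and 3 *SYISL* knockout (KO) samples. The strain, the sex of the fetuses, the way the allele was made and the number of fetuses per sample are not given in the labels. Fetuses came from matings within each genotype, so the genotype of the fetus, that of its mother and the litter cannot be told apart. Nothing says that samples of a genotype came from separate animals, so the p-values measure the spread between these samples only.

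Osteoblasts lay down a matrix of type I collagen and mineralize it, and some of them become buried in it as osteocytes. RUNX2 and, downstream of it, SP7 (osterix) are the transcription factors that commit cells to this lineage. *Alpl* encodes the tissue-nonspecific alkaline phosphatase, which removes the mineralization inhibitor pyrophosphate. *Ibsp* (bone sialoprotein), *Spp1* (osteopontin), *Dmp1* and *Mepe* encode acidic phosphoproteins of the mineralized matrix and form, with *Dspp*, a gene cluster known as the SIBLING family. *Bglap* and *Bglap2* encode osteocalcin, a late product of osteoblasts, and *Phex* encodes a membrane endopeptidase that, like DMP1, restrains the phosphate-lowering hormone FGF23. Muscle fibers are not known as a main source of these transcripts. A fetal leg also holds bone and cartilage, and *Spp1* and *Alpl* are known from other cells as well, macrophages for the former and vessels for the latter.

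In KO samples *Mepe* and *Bglap* rose, *Dmp1* fell and *Ibsp* stood at the same level within the spread of the samples. The rise of *Bglap* was only just over 1.5-fold, and the sum of *Bglap* and its near copy *Bglap2* rose by less. Without KO replicate 1, the fall of *Dmp1* was just under 1.5-fold. The remaining 6 genes shifted by less than 1.5-fold, *Bglap2* and *Phex* to higher and *Runx2*, *Sp7*, *Alpl* and *Spp1* to lower levels. Outside these 10, the osteocyte genes *Sost* and *Fgf23* had the largest rises among the bone genes examined (log2 fold changes 1.92 and 1.55). *Bglap3* and *Smpd3* had the largest falls (-2.38 and -1.80), and *Gja1*, of the same list as *Sost*, fell as well (-0.95).

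The members lie on 6 chromosomes of mm10 (positions from GENCODE M21, the whole gene in each case). *Dmp1* (chr5:104202613-104214102), *Ibsp* (chr5:104299171-104311469), *Mepe* (chr5:104325329-104338611) and *Spp1* (chr5:104435118-104441050) follow each other on the plus strand of chromosome 5. *Bglap2* (chr3:88377736-88378699) and *Bglap* (chr3:88383501-88384464) are neighbours on the minus strand of chromosome 3. The others are *Runx2* (chr17:44495987-44814797), *Sp7* (chr15:102356606-102367182), *Alpl* (chr4:137741733-137796384) and *Phex* (chrX:157162075-157415312), all on the minus strand. Counts were taken over exons. *Runx2* shares 519 of its 8837 exon bases with the antisense gene *Runx2os1*. Reads there cannot be assigned with certainty because the strand setting of the counting is not given. *Spp1* shares 309 of 1648 exon bases with *Gm42793* on its own strand, where reads cannot be assigned by strand under any setting.

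The osteocalcin genes are near copies, which bears on how their reads could be counted. The first annotated transcripts measure 440 bases (*Bglap*) and 471 bases (*Bglap2*), and 434 of 440 aligned bases are the same (98.64%). Of the 291 stretches of 150 bases, the read length, in the *Bglap* transcript, 92 also occur in *Bglap2*. Their coding sequences, 285 bases each, differ at 4 positions, of which 3 fall in the first 60 bases, shown here 5′ to 3′ from GENCODE M21 with the differing bases in capitals.

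*Bglap*: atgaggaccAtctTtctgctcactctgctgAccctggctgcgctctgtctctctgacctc
*Bglap2*: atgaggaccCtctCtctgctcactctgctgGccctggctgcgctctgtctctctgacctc

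Promoter sequences are shown for the 3 members that passed the test and for *Spp1* and *Ibsp*, their abundant neighbours on chromosome 5. Each line holds the 200 bases upstream of the RefSeq start site, 5′ to 3′ on the strand of the gene, from the RefSeq table built on GRCm38.p6, the assembly of mm10. Capitals mark the RUNX binding letters ACCACA or ACCGCA on either strand. These strings differ at the fourth base and cannot match at the same position.

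*Bglap* (chr3:88384467-88384666, minus strand): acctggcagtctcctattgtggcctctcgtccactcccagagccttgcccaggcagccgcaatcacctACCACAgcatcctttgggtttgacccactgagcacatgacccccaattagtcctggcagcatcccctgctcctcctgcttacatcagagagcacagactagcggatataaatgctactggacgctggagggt
*Mepe* (chr5:104325129-104325328, plus strand): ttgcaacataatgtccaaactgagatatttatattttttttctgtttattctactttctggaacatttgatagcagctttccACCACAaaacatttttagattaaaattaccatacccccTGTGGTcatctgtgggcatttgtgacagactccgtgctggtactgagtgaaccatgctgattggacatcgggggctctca
*Dmp1* (chr5:104202417-104202616, plus strand): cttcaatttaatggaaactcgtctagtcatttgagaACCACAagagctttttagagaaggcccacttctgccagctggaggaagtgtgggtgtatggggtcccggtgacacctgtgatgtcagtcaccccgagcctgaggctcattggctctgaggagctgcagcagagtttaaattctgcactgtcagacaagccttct
*Spp1* (chr5:104434911-104435110, plus strand): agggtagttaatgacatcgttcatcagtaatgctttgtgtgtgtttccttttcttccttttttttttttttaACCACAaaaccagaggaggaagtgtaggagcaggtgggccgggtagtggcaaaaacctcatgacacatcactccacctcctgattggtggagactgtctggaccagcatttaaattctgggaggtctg
*Ibsp* (chr5:104299087-104299286, plus strand): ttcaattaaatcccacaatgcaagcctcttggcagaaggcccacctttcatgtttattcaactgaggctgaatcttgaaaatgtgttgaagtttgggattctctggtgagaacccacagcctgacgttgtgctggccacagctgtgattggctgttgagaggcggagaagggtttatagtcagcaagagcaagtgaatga

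The search covered windows of 300 bases, from 250 upstream to 50 downstream of the start, for the 8 of 10 members in that table (*Sp7* and *Bglap2* had no entry). Of these 8, 5 held a match, namely *Runx2*, *Bglap*, *Spp1*, *Dmp1* and *Mepe*, while *Alpl*, *Ibsp* and *Phex* held none. Among all 32851 windows of this kind, 22.4% held a match. The RefSeq start lay 116 bases inside the GENCODE gene for *Ibsp* and 170 bases inside it for *Runx2*. Some of their upstream bases thus fall within the gene positions given above. The first base of the match lay at position -132 in *Bglap*, -128 in *Spp1*, -164 in *Dmp1* and -118 in *Mepe*, counted from the start site, and *Mepe* held another at -80 on the opposite strand. These matches are letters in a window. Binding of RUNX2 was not measured, and genes with a match were found among those that rose and those that fell.

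The 6 libraries held 82054811 to 102233181 counts. All 10 members passed the filter on low counts, along with 22071 genes in all. Levels are given as CPM (reads per 1000000 counted reads) on library sizes scaled by TMM, which corrects for differences in composition. *Synpo2*, the host gene of *SYISL*, had 10812 to 14672 counts in WT and 18054 to 22270 in KO, and its exons do not show whether *SYISL* itself was deleted. Both over 1000 counts of *Xist* and over 100 counts of 4 Y-linked genes were found in 3 libraries (WT replicate 3 and KO replicates 2 and 3). WT replicate 2 and KO replicate 1 held *Xist* alone by these limits, and WT replicate 1 Y-linked transcripts alone. The share of Y-linked counts was therefore added as a covariate, after the data were seen, and it changed none of the calls on the members. Muscle genes, the markers of the labelled tissue, were high in every library, and a list of 10 summed to 18673 to 20830 CPM in WT and 39254 to 47275 CPM in KO. A list of 10 keratinocyte genes, which mark the epidermis, summed to 16525 to 24865 CPM in WT and 696 to 804 CPM in KO, and all 10 were called lower. The part of this difference in the results on bone genes was not tested.

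A gene was called a differentially expressed gene (DEG) where its fold change was over 1.5 and its adjusted p under 0.05. Every adjusted p given here comes from the quasi-likelihood test of edgeR, adjusted by the Benjamini-Hochberg method over all genes tested. Of the 10 members, 2 were called higher in KO and 1 lower. Among all genes tested, 8.31% were called higher and 8.39% lower, and nothing is read from counts this small about the members as a list. By the adjusted p alone, 4 members were higher and 5 lower, where 21.9% and 23.1% of all genes were. All 3 KO values lay above all 3 WT values for 4 members and below them for 5, as they did for 27.3% and 28.5% of all genes. The median log2 fold change of the members was -0.11, beside -0.0041 over all genes tested. For 9 members an exact two-sided permutation test over the 6 samples gave p = 0.1, the smallest that 3 against 3 allow, and for *Ibsp* it gave p = 0.7.

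**Figure D1:**
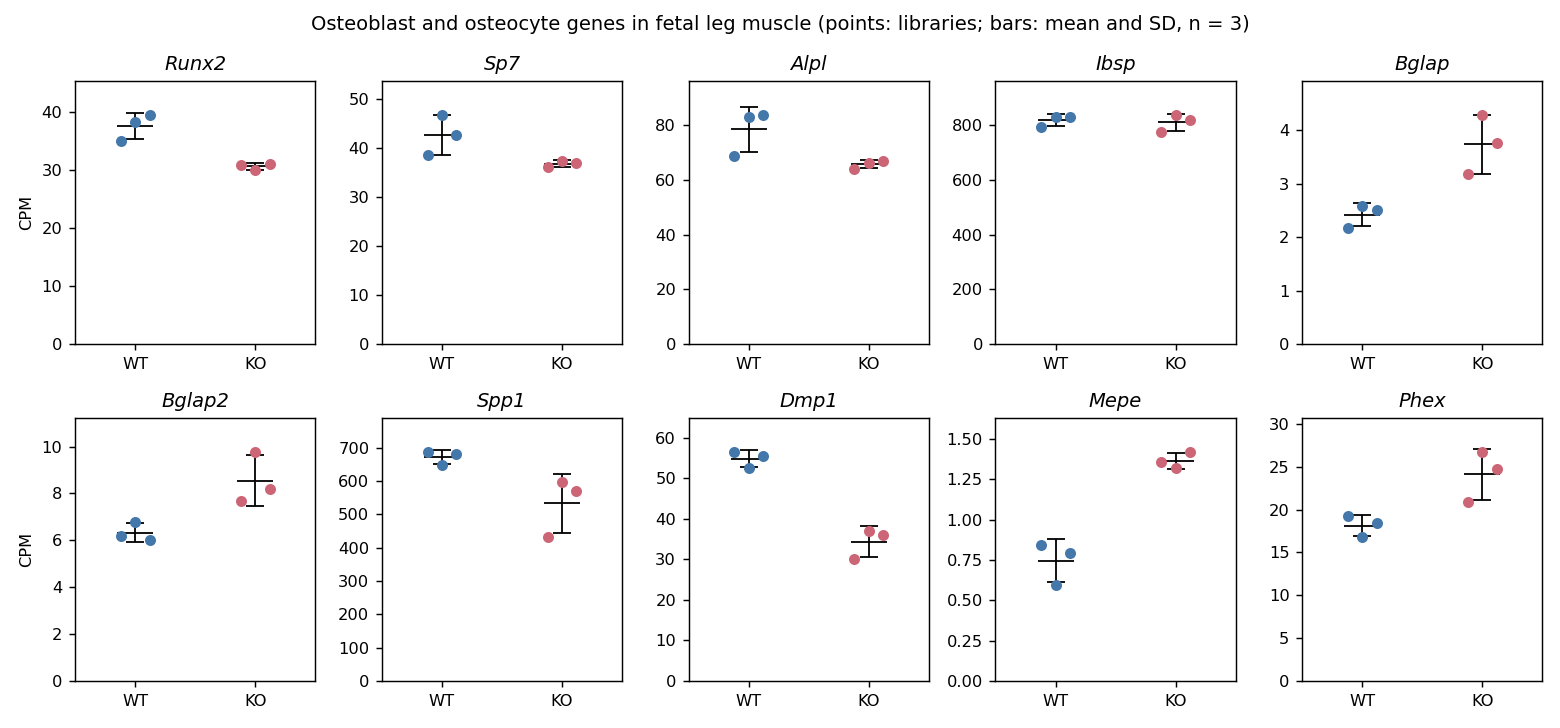
Level of each of the 10 genes in CPM (vertical axes, from 0, a separate scale per gene) in the WT and KO samples, with points for libraries and bars for the mean and SD (n = 3). WT and KO points do not overlap except for *Ibsp*, at 772 to 834 CPM over both genotypes.

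The transcription factors of the lineage were lower in KO by less than 1.5-fold. *Runx2* stood at 35.1, 38.4 and 39.5 CPM in the WT samples and at 30.9, 30.1 and 31.1 CPM in the KO samples. All KO values lay below the lowest WT value. On average *Runx2* had 37.7 ± 2.28 CPM in WT against 30.7 ± 0.547 CPM in KO (mean ± SD, n = 3 each). Its log2 fold change was -0.30 with a standard error of 0.051 (edgeR adjusted p = 0.00117). *Sp7*, the factor that acts downstream of RUNX2, stood at 38.5, 46.7 and 42.6 CPM in WT and at 36.1, 37.4 and 36.9 CPM in KO. Its KO values were close together and all below WT, with WT replicate 1 the nearest to them. The mean was 42.6 ± 4.08 CPM against 36.8 ± 0.686 CPM, and the log2 fold change was -0.21 with a standard error of 0.064 (edgeR adjusted p = 0.0233). This adjusted p rose above 0.05 in 5 of the 6 fits that left out 1 library (0.0508 to 0.0756), all but the fit without WT replicate 1, and with upper-quartile factors (0.0733).

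*Alpl*, which encodes the enzyme that clears pyrophosphate, behaved much like these factors. It stood at 68.8, 82.9 and 83.5 CPM in WT and at 64.1, 66.1 and 66.9 CPM in KO. WT replicate 1 was the lowest of its group here too, and no KO value reached it. The mean of 78.4 ± 8.30 CPM in WT compared with 65.7 ± 1.46 CPM in KO. The log2 fold change was -0.25 with a standard error of 0.069 (edgeR adjusted p = 0.0140), and without WT replicate 3 the adjusted p was 0.0587.

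Among the acidic matrix proteins, the abundant *Ibsp* and *Spp1* differed from each other. *Ibsp* stood at 791, 829 and 829 CPM in WT and at 772, 834 and 819 CPM in KO. Its highest and its lowest value were both in KO, so the groups overlapped. The means were 816 ± 22.0 and 809 ± 32.5 CPM, and the log2 fold change of -0.013 was smaller than its standard error of 0.053 (edgeR adjusted p = 0.864). The sign of this value was positive with upper-quartile factors (0.055) and without KO replicate 1 (0.025). *Spp1* stood at 687, 649 and 682 CPM in WT and at 431, 597 and 571 CPM in KO. KO replicate 1 was far below the other KO samples, and all 3 were below WT. *Spp1* averaged 673 ± 20.9 CPM in WT against 533 ± 89.2 CPM in KO, for a log2 fold change of -0.34 with a standard error of 0.11 (edgeR adjusted p = 0.0282). Without KO replicate 1 the log2 fold change shrank from -0.34 to -0.20, with an adjusted p of 0.0138. Without WT replicate 1, WT replicate 3 or KO replicate 3 the adjusted p was 0.0657, 0.0769 and 0.0543, and with upper-quartile factors it was 0.0607. The exons that *Spp1* shares with *Gm42793* add to the uncertainty of its counts.

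*Dmp1* and *Mepe*, genes of the same cluster that are typical of osteocytes, moved in opposite directions. *Dmp1* was counted 5347, 4339 and 5857 times in WT against 2819, 3531 and 3509 times in KO, or 56.5, 52.5 and 55.5 CPM against 30.1, 37.1 and 36.1 CPM. The WT samples were within a narrow range, every KO sample was well below it, and KO replicate 1 was the lowest. From a WT mean of 54.8 ± 2.07 CPM, *Dmp1* fell to 34.4 ± 3.78 CPM (SD, n = 3 each), which is 1.59-fold lower (log2 fold change -0.67, standard error 0.073, edgeR adjusted p = 6.61e-05). Without KO replicate 1 the log2 fold change was -0.58 with an adjusted p of 2.67e-05, just under the 1.5-fold threshold of 0.585 on that scale. *Mepe* was the least abundant member, counted 80, 49 and 84 times in WT against 127, 126 and 138 times in KO. Its levels were 0.845, 0.593 and 0.796 CPM in WT and 1.35, 1.32 and 1.42 CPM in KO. WT replicate 2 was the lowest, and the KO samples lay close together above all of WT. *Mepe* rose 1.82-fold, from 0.745 ± 0.134 to 1.37 ± 0.0491 CPM (log2 fold change 0.87, standard error 0.15, edgeR adjusted p = 0.00125), and it was called in all 15 alternative fits.

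The osteocalcin genes were both higher in KO. *Bglap* was counted 206, 213 and 265 times in WT against 298, 408 and 367 times in KO, or 2.18, 2.58 and 2.51 CPM against 3.18, 4.28 and 3.77 CPM. The groups did not overlap, and KO replicate 1 was the nearest to WT. *Bglap* rose 1.55-fold, from 2.42 ± 0.215 to 3.74 ± 0.551 CPM (log2 fold change 0.63, standard error 0.12, edgeR adjusted p = 0.00256). It stood so near the 1.5-fold threshold that it was not called without WT replicate 1 (0.56), without KO replicate 2 (0.52) or with library size as the only scaling (0.56). *Bglap2* stood at 6.18, 6.79 and 6.02 CPM in WT and at 7.67, 9.77 and 8.18 CPM in KO. Its KO samples were ranked as for *Bglap*, with replicate 2 highest and replicate 1 lowest. *Bglap2* averaged 6.33 ± 0.407 CPM in WT against 8.54 ± 1.09 CPM in KO, for a log2 fold change of 0.43 with a standard error of 0.098 (edgeR adjusted p = 0.00556), under the fold-change threshold.

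Because reads of these copies may have been split or exchanged, their counts were also added. For the sum of *Bglap* and *Bglap2*, formed after the data were seen, the log2 fold change was 0.49 ± 0.097 (SE, edgeR adjusted p = 0.00270), under the 1.5-fold threshold. *Bglap3*, the next gene of the cluster (chr3:88368616-88372743), which is expressed outside bone as well, moved the other way. Its mean of 3.28 ± 1.04 CPM in WT fell to 0.624 ± 0.179 CPM in KO (log2 fold change -2.38, standard error 0.26, edgeR adjusted p = 7.04e-05). With all 3 genes added, the log2 fold change was 0.10 (edgeR adjusted p = 0.508), so the result for osteocalcin rests on keeping *Bglap3* apart.

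*Phex*, whose product acts with DMP1 in phosphate control, was higher in KO while *Dmp1* fell. It stood at 19.2, 16.8 and 18.4 CPM in WT and at 20.8, 26.7 and 24.8 CPM in KO. KO replicate 1 was again the lowest of its group and only slightly above the highest WT sample. *Phex* averaged 18.1 ± 1.24 CPM in WT against 24.1 ± 3.0 CPM in KO, for a log2 fold change of 0.41 with a standard error of 0.091 (edgeR adjusted p = 0.00513), under the fold-change threshold.

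Levels of different genes were compared per kilobase of exon, merged over all annotated transcripts of a gene. For *Bglap* this length is 618 bases, while its first transcript measures 440, so the order depends on the length used. In WT, *Spp1* (408 ± 12.7 CPM per kb) and *Ibsp* (395 ± 10.7) led and overlapped, far above *Dmp1* (19.8 ± 0.749) and *Alpl* (19.4 ± 2.06), which also overlapped. *Bglap2* (13.4 ± 0.865 CPM per kb) and *Sp7* (12.5 ± 1.20) followed and overlapped, as did *Runx2* (4.26 ± 0.258) and *Bglap* (3.92 ± 0.348). *Phex* (2.88 ± 0.198 CPM per kb) and *Mepe* (0.443 ± 0.0794) were lowest and separate from their neighbours. The order differed in KO. There *Ibsp* (391 ± 15.7 CPM per kb) stood above *Spp1* (323 ± 54.1) without overlap, and *Bglap2* (18.1 ± 2.32) was in the third place, overlapping with *Alpl* (16.3 ± 0.362). *Dmp1* (12.4 ± 1.37 CPM per kb) overlapped with *Sp7* (10.8 ± 0.202), *Bglap* (6.06 ± 0.892) no longer overlapped with *Runx2* (3.47 ± 0.0619), which now overlapped with *Phex* (3.83 ± 0.477), and *Mepe* (0.812 ± 0.0292) remained the lowest.

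**Figure D2:**
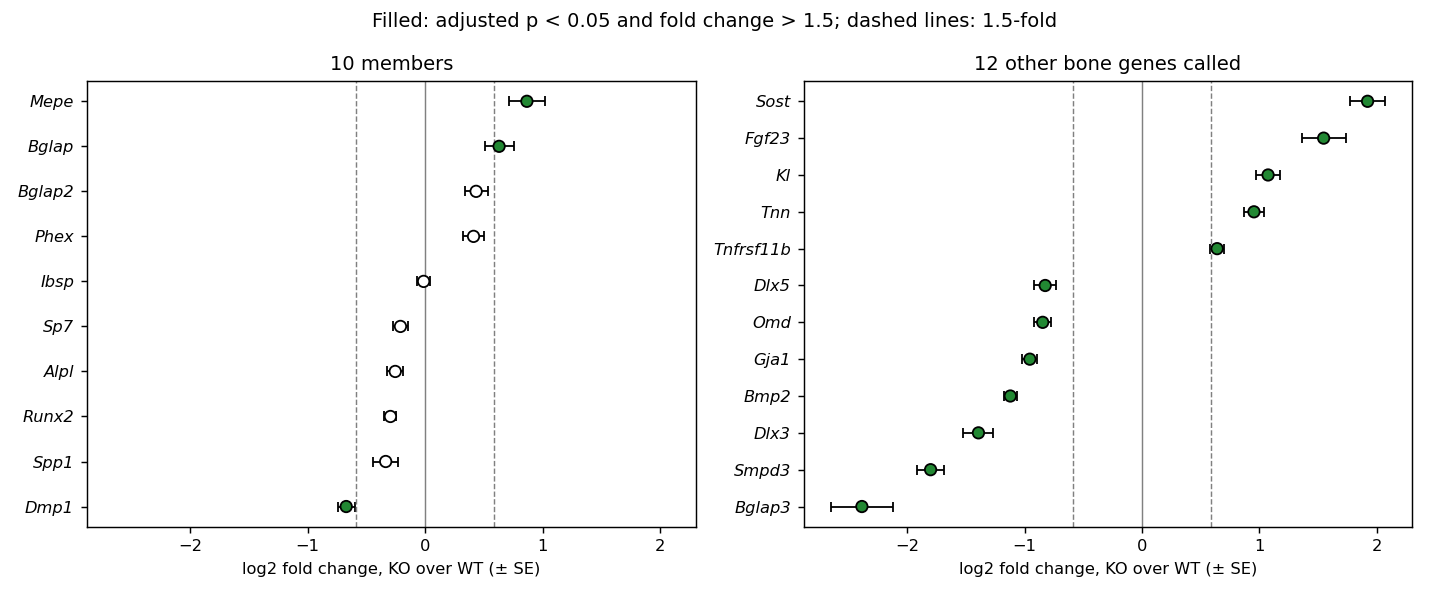
Log2 fold change of KO over WT with its standard error (horizontal axes) for the 10 members (left) and for the 12 other bone genes that were called (right). Filled points passed both thresholds, dashed lines mark a 1.5-fold change, and the members span -0.67 (*Dmp1*) to 0.87 (*Mepe*) while the other genes reach -2.38 (*Bglap3*) and 1.92 (*Sost*).

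In bulk tissue, fewer cells of a type and less RNA per cell cannot be told apart. To compare the bone genes with each other inside each library, their counts were therefore also set against *Ibsp*, a choice made after seeing that *Ibsp* did not pass the test. Per 1000 *Ibsp* counts, *Dmp1* stood at 71.4, 63.3 and 67.0 in WT against 39.0, 44.4 and 44.0 in KO. These values lay 1.58-fold lower in KO on average and did not overlap. *Mepe* went from 0.915 ± 0.181 to 1.69 ± 0.0925 per 1000 *Ibsp* counts (SD, n = 3 each) and *Bglap* from 2.96 ± 0.187 to 4.62 ± 0.506. *Phex* went from 22.2 ± 2.04 to 29.8 ± 2.56, *Bglap2* from 7.76 ± 0.467 to 10.5 ± 1.01 and *Spp1* from 825 ± 43.3 to 657 ± 85.8. *Runx2* went from 46.1 ± 1.63 to 38.0 ± 2.0, *Sp7* from 52.2 ± 3.85 to 45.5 ± 1.02 and *Alpl* from 95.9 ± 7.70 to 81.3 ± 1.94. Because *Ibsp* was chosen for its near equal level in both genotypes, these ratios restate the CPM values and are no further evidence of the directions.

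**Figure D3:**
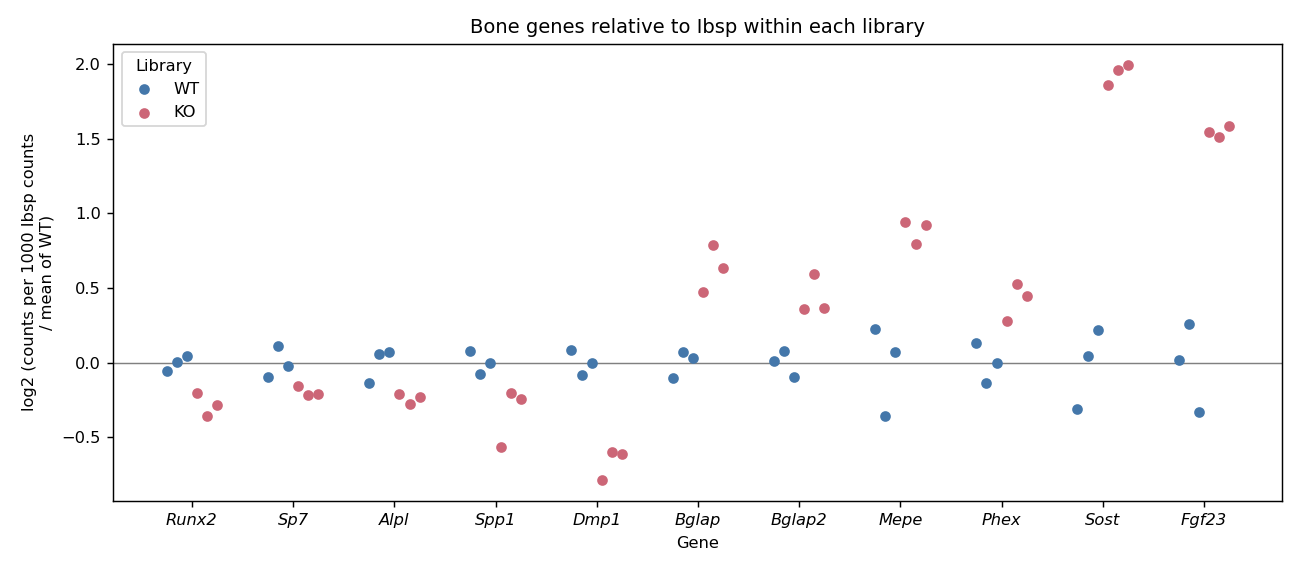
Counts per 1000 *Ibsp* counts in each library, as log2 of the ratio to the WT mean of the gene (vertical axis), for 9 members and for *Sost* and *Fgf23*. Points are libraries (3 WT, 3 KO), and KO points lie below WT for *Runx2*, *Sp7*, *Alpl*, *Spp1* and *Dmp1* and above it for the other 6 genes.

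Of 47 further genes of osteoblasts and osteocytes, in lists of transcription and signalling, matrix, mineral handling and late stages, 46 were tested. Of these, 5 were called higher and 7 lower in KO, beside 8.31% and 8.39% of all genes, and 34 were not called. By the adjusted p alone 16 were higher and 13 lower, beside 21.9% and 23.1% of all genes. The median log2 fold change was 0.07. *Dspp*, the remaining member of the chromosome 5 cluster, was counted at most 1 time in any WT library and at most 2 times in any KO library and was not tested.

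The 5 genes called higher were *Sost*, *Kl* and *Tnfrsf11b* of the late list (3 of 9, with *Gja1* of the same list called lower), *Fgf23* of mineral handling (1 of 10) and *Tnn* of the matrix (1 of 11). *Sost*, which encodes the WNT inhibitor sclerostin of osteocytes, was counted 77, 90 and 130 times in WT against 335, 396 and 406 times in KO. Every KO sample held more than any WT sample by a wide margin. Its level rose from 1.04 ± 0.213 to 3.97 ± 0.341 CPM (mean ± SD, n = 3 each), for a log2 fold change of 1.92 with a standard error of 0.15 (edgeR adjusted p = 6.21e-06). *Fgf23*, the hormone gene that PHEX and DMP1 are known to restrain, was counted 24, 26 and 22 times in WT against 67, 72 and 76 times in KO. Its level rose from 0.259 ± 0.0533 to 0.751 ± 0.0335 CPM, for a log2 fold change of 1.55 with a standard error of 0.19 (edgeR adjusted p = 1.33e-04). Its coreceptor gene *Kl* (klotho) rose from 3.33 ± 0.371 to 7.02 ± 0.545 CPM (log2 fold change 1.07). *Tnfrsf11b*, which encodes osteoprotegerin, rose from 7.54 ± 0.133 to 11.7 ± 0.269 CPM (0.64), and it was not called with library size as the only scaling (0.57). *Tnn*, a tenascin gene of bone and periosteum, rose from 35.5 ± 4.88 to 68.8 ± 1.95 CPM (0.95). Against *Ibsp*, *Sost* went from 1.28 ± 0.231 to 4.90 ± 0.242 and *Fgf23* from 0.317 ± 0.0641 to 0.928 ± 0.0242 per 1000 *Ibsp* counts. At these low counts, *Mepe*, *Sost* and *Fgf23* were higher in each of the 3 KO samples than in any WT sample, as were 27.3% of all genes tested. *Dmp1* and *Gja1* were lower in each KO sample than in any WT sample, as were 28.5% of all genes tested.

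The 7 genes that fell were 3 of transcription and signalling, 3 of the matrix and *Gja1*. *Dlx3* and *Dlx5*, homeobox factors of osteoblasts, fell from 29.9 ± 6.30 to 11.4 ± 0.158 CPM (log2 fold change -1.39) and from 14.8 ± 1.94 to 8.34 ± 0.426 CPM (-0.82). *Bmp2*, a ligand that induces bone formation, fell from 24.5 ± 1.29 to 11.3 ± 0.145 CPM (-1.12). *Smpd3*, a sphingomyelinase needed for mineralization, fell from 125 ± 20.1 to 35.8 ± 3.97 CPM (-1.80). *Omd* (osteomodulin) fell from 23.8 ± 2.26 to 13.2 ± 0.259 CPM (-0.85), and *Gja1*, the connexin gene that couples osteocytes, from 367 ± 32.4 to 189 ± 5.26 CPM (-0.95). *Bglap3* is the seventh of them, with the values given above. *Dlx3* and *Gja1* are also known from epidermis. *Dlx3*, *Dlx5*, *Smpd3*, *Omd* and *Bglap3* ranked WT replicate 2 above WT replicate 3 and that above WT replicate 1, as did the summed keratinocyte genes. So did *Tnn*, which rose, and *Col1a1*, while *Bmp2* and *Gja1* did not. This order was found in 25.5% of all genes tested and in 57% of the genes called lower. Among the 10 members it was found in *Sp7*, *Ibsp* and *Bglap* and not in the others. An order of 3 libraries is a description, and the part of epidermis in the differences of these genes was not tested. *Col1a1*, the main collagen gene of bone, skin and tendon, averaged 18324 ± 1234 CPM in WT against 20477 ± 194 CPM in KO, and its log2 fold change of 0.16 missed the threshold (edgeR adjusted p = 0.150).

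Markers of the cells that surround osteoblasts in a fetal leg were summed in the same libraries. The 10 members summed to 1705 to 1760 CPM in WT and 1397 to 1644 CPM in KO, with KO replicate 1 lowest. *Ibsp* (816 and 809 CPM on average) and *Spp1* (673 and 533 CPM) were by far the largest parts of this sum. It therefore says little about the other members, some of which rose. Of 14 osteoclast genes, 0 were called by edgeR, DESeq2 or limma-voom. At an unadjusted edgeR p under 0.05, 6 were higher and 4 lower. The adjusted p alone was passed by 21.9% (higher) and 23.1% (lower) of all genes. Among the osteoclast genes, *Oscar*, *Tnfrsf11a*, *Itgb3* and *Tcirg1* were higher by it and *Calcr*, *Atp6v0d2* and *Car2* lower (these 7 are named after their values were seen). Their sum was 505 to 552 CPM in WT and 554 to 606 CPM in KO, and the enzymes of bone resorption *Acp5* (46.2 ± 3.36 and 53.1 ± 6.44 CPM) and *Ctsk* (135 ± 4.45 and 143 ± 4.79 CPM) overlapped between the genotypes. Hypertrophic cartilage, which lies next to forming bone, was represented by 3 genes with a sum of 110 to 135 CPM in WT and 86.5 to 106 CPM in KO. Of these 3, 0 were called by edgeR, DESeq2 or limma-voom, although all 3 were lower at an unadjusted edgeR p under 0.05. *Col10a1*, its defining collagen, averaged 25.6 ± 3.21 CPM in WT against 18.0 ± 2.40 CPM in KO (log2 fold change -0.51, edgeR adjusted p = 0.00503). Without WT replicate 1 it was called lower (-0.61). *Mmp13*, a collagenase of hypertrophic chondrocytes and osteoblasts, stood at 96.9 ± 9.19 and 80.4 ± 8.29 CPM (-0.27, edgeR adjusted p = 0.0271).

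**Figure D4:**
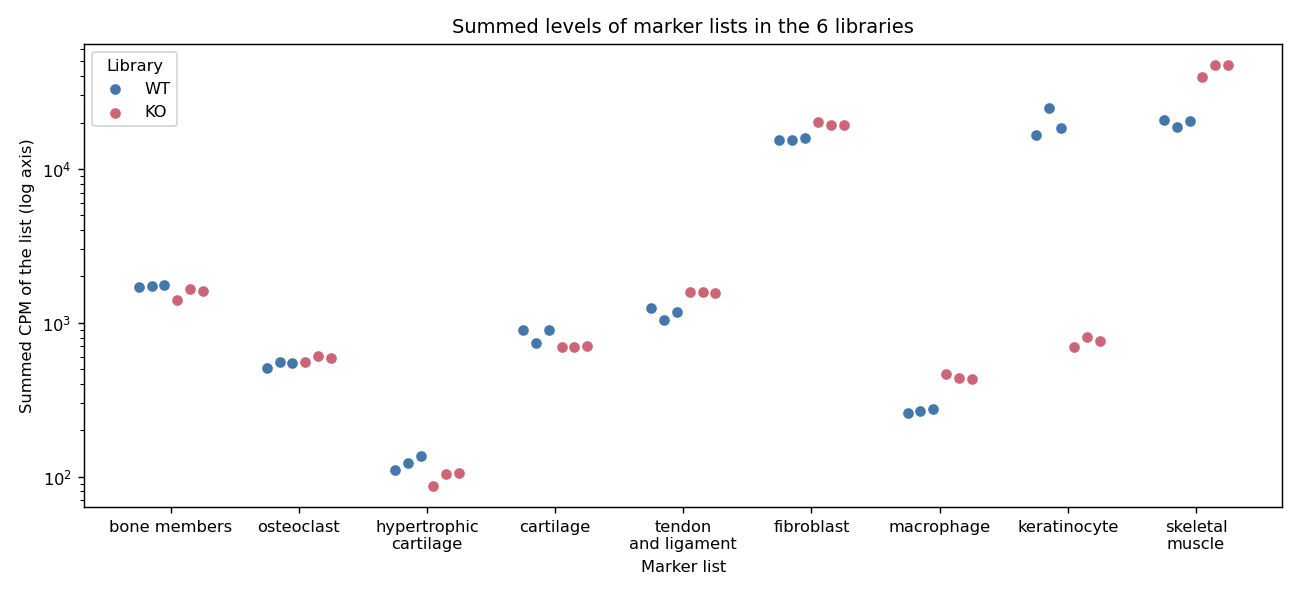
Summed CPM of each marker list (vertical axis, log scale) in the 3 WT and 3 KO libraries, 1 point per library. The bone members lie at 1397 to 1760 CPM, while the keratinocyte genes lie at 16525 to 24865 CPM in WT and 696 to 804 CPM in KO.

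Of 15 cartilage genes, 7 were called lower and 1 higher, beside 8.39% and 8.31% of all genes tested. The same shares stand beside the counts of called genes in the other lists here. For counts at an unadjusted p no share of all genes is given. The lists were chosen with earlier results known. The cartilage genes summed to 743 to 897 CPM in WT and 696 to 701 CPM in KO. *Col2a1*, the main collagen of cartilage, fell from 278 ± 41.7 to 141 ± 0.305 CPM (log2 fold change -0.98). *Matn1* (-2.24), *Col9a1* (-1.40), *Cnmd* (-1.28), *Col9a3* (-1.19) and *Matn3* (-0.96) were also called lower. *Comp*, named after its value was seen, was called higher (0.79), *Acan*, the proteoglycan of cartilage, stood at 104 ± 9.94 and 138 ± 2.88 CPM (0.41), and *Sox9* at 15.9 ± 0.114 and 11.9 ± 0.312 CPM (-0.42). Of 10 macrophage genes 6 were called higher, with a sum of 260 to 276 CPM in WT and 432 to 467 CPM in KO. *C1qb*, among these 6, was not called with library size only (0.54), without WT replicate 2 (0.57) or without KO replicate 1 (0.56). Of 6 tendon genes 2 were called higher (*Thbs4* and *Fmod*, neither of them with library size only and the latter not without WT replicate 2, at 0.57), with a sum of 1037 to 1248 CPM in WT and 1570 to 1576 CPM in KO. Of 6 fibroblast genes, 0 were called by edgeR, DESeq2 or limma-voom. All 6 were higher at an unadjusted edgeR p under 0.05 and at the adjusted p, the latter beside 21.9% of all genes. The fibroblast genes summed to 15297 to 15839 CPM in WT and 19165 to 20131 CPM in KO. Of 8 genes of smooth muscle and endothelium 1 was called higher (*Myh11*, named after its value was seen), with sums of 1032 to 1051 and 1096 to 1152 CPM, and of the 10 muscle genes 8 were called higher. The part of these cell types in the differences of the bone genes was not tested.

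A mean profile of the 10 members, taken from log2 CPM centred for each gene, was -0.056, -0.032 and 0.0083 in WT against -0.092, 0.11 and 0.059 in KO. Genes that rose and genes that fell largely cancelled in it, and KO replicate 1 was the lowest sample. Outside the members, the 5 genes with a mean of at least 1 CPM whose log2 CPM followed this profile most closely over the 6 samples were *Slc25a29* (Pearson's r = 0.98), *Tekt5* (0.97), *C530044C16Rik* (0.97), *Tusc3* (0.97) and *Zfp777* (0.96). After the genotype means were subtracted they were *Atp5g1*, *Itgb6*, *Dnaja3*, *Acot13* and *Ipo5*, with r between 0.996 and 0.9998. These values are the highest of a search over all genes at that level, and such a search over 6 libraries yields high values by itself. They are a description of libraries that share their genotypes.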

How the data were processed

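RNA-seq of E18.5 leg muscle was analysed for 3 WT and 3 KO samples, grouped by the genotype in the labels. The authors used Trim Galore 0.6.6 to trim paired reads of 150 bases, HISAT2 2.2.1 to map them to mm10 and featureCounts 2.0.1 for the counts. Their deposited gene counts are whole numbers without normalization or filter, and the table of the whole series and the files per sample differed in 0 values. The gene annotation, the strand setting, the treatment of reads that map to several genes and whether reads or pairs were counted are not given in the sources used here. Of 56262 identifiers, 55227 were found in GENCODE M21, which gave symbols and positions. The identifier of *Runx2* had another version there.

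Counts were tested in R 4.3.3 with edgeR 4.0.16 (filterByExpr, TMM, quasi-likelihood test on genotype, Benjamini-Hochberg adjustment over 22071 genes), and the scripts were tested on simulated data. DEGs had a fold change over 1.5 and an adjusted p under 0.05. The study, which used DESeq2, gives these thresholds in a figure legend, while its methods name a p-value under 0.05. The lists of DEGs were not compared with those of the study. CPM values use TMM-scaled library sizes. Libraries held 82054811 to 102233181 counts, so the precision of abundant genes is set by the spread of samples and that of *Mepe* and *Fgf23* also by counting.

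The members, marker lists and tests were chosen with earlier results of these data known. Named were all members, the called genes of the bone and cartilage lists (up to 6 per list, by absolute log2 fold change), defining genes of these lists and of the osteoclast list, and the 5 genes most like the members. For lists of other cell types, sums and counts are given, and the few single genes named outside this rule were chosen after their values were seen. Alternatives were other scalings (RLE, upper quartile, library size only), DESeq2 1.42.0, limma-voom (limma 3.58.1), other filters and fold thresholds, a replicate block, leaving out each library, and sums of the *Bglap* genes. The Y-linked covariate, the sum of *Bglap* and *Bglap2* and the scaling to *Ibsp* were chosen after seeing the data.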

Additional observations from a re-analysis of the deposited data

How the results depend on the processing

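In the 15 alternative fits, 7 of the 10 members kept their direction and their call (*Mepe* a DEG, the other 6 not), though the adjusted p of *Sp7*, *Alpl* and *Spp1* crossed 0.05 in some (up to 0.0756, 0.0587 and 0.0769). *Bglap* was no longer called with library size as the only scaling (0.56), with *Bglap2* added (0.49) or with *Bglap2* and *Bglap3* added (0.10), and its log2 fold change ranged from 0.52 to 0.74 when 1 library was left out. That of *Dmp1* ranged from -0.73 to -0.58. *Ibsp*, near 0, turned positive with upper-quartile factors (0.055) and ranged from -0.037 to 0.025 when 1 library was left out. The number of members called higher was 1 with library size only, 0 at a fold change over 2 and 4 with no fold-change threshold, and 1 to 2 when 1 library was left out. The number called lower was 0 at a fold change over 2 and 5 with no fold-change threshold, and 0 to 1 when 1 library was left out. Of the other bone genes, 3 were higher and 4 lower at a fold change over 2, and 16 and 13 with no fold-change threshold. Among all genes, 774 were higher at a fold change over 2, and 4838 higher and 5098 lower with no fold-change threshold. Among the marker genes, *Myh3*, near 0, turned positive with upper-quartile factors (0.027). The cause of these changes was not tested, apart from the lists made longer or shorter by the threshold itself. No label ties a replicate number to a litter. The deviations of equally numbered samples from their group means correlated by -0.20, -0.13 and 0.05, and the samples were treated as unpaired. With the replicate number as a block, 2 members were called higher and 1 lower, as without it (*Bglap* 0.62, *Dmp1* -0.68, *Mepe* 0.88), and 1744 and 1777 of all genes. Upper-quartile factors moved the median of all genes to 0.064 and library size only to -0.073. Counting error weighs on *Mepe* (49 to 138 counts) and *Fgf23* (22 to 76 counts), *Dspp* was too low to test, and near copies limit the *Bglap* genes at any depth.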
